A study of Mus musculus with 10 samples.

Results

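Genes that type I interferon switches on were followed in infrarenal aorta of mice with an elastase-induced abdominal aortic aneurysm (AAA) and in sham-operated mice. The 40 genes were chosen by name, as the receptor of type I interferon and genes widely known to respond to it. Earlier results of these data were known when they were chosen. Each was found in the scanner files as non-control spots whose gene name was the listed symbol. They are 2 receptor chains, 4 sensors, 6 transcription factors and 28 effectors, of 35527 gene names on the array. All 40 had a probe under their own symbol, and 39 were bright enough to be tested.

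The mice were male C57BL/6J, 10 weeks old. In the PPE group (5 mice) the infrarenal aorta was filled with type I porcine pancreatic elastase at 1.5 U per mL for 5 min at 100 mmHg, and in the sham group (5 mice) with saline. Tissue was taken on day 7 from below the left renal artery down to where the aorta divides, and 500 ng of RNA from 1 unpooled aorta went on each array. Both groups share the strain, the operation and the reference RNA, so saline infusion under pressure is the baseline here, and an aorta without an operation was not measured in these arrays. Elastase infusion damages the elastic layers of the wall, and whole tissue was profiled, so medial, adventitial and infiltrating cells were measured together.

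On every array the red dye (Cy5) read the aorta and the green dye (Cy3) read a common mouse reference, a mixture of RNA from cultured lines. A value is therefore a log2 ratio of aorta over reference for 1 probe, and ratios of different probes are not set against each other as levels. A log2 fold change is the PPE mean minus the sham mean of these ratios, given with its standard error (SE) and an adjusted p, always that of limma, a linear model fitted to all 22520 names tested. A gene was called higher or lower at an adjusted p under 0.01. In whole tissue, more cells of a type and more RNA per cell cannot be told apart.

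Type I interferons are secreted proteins that bind the receptor made of IFNAR1 and IFNAR2. The bound receptor activates the kinases JAK1 and TYK2, and STAT2 and IRF9 take part in the complex ISGF3, which binds the interferon-stimulated response element (ISRE) in promoters. The products include RNA and DNA sensors, transcription factors that prolong the response, and effectors that cut RNA, block translation or hold viruses at membranes. Interferon gamma, through its own receptor and gamma-activated sites (GAS) in promoters, induces many of the same genes, and macrophages and dendritic cells carry several of them at rest.

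Promoter sequence was not used in choosing the genes, and the RefSeq table of promoter windows (GRCm38.p6, 250 bases before to 50 bases from the start of each gene) held 31 of the 40. Windows were searched on both strands for the ISRE core GAAANNGAAA, which reads TTTCNNTTTC on the other strand. Of the 31 genes 13 held it in a window, against 3.99% of the 27025 symbols in the table. Irf9, Irf1, Irf8 and Ifit2 had 2 windows and Isg20 had 3, and a match in any of them counted. The 13 are 10 of 21 effectors, both sensors with a window, 1 of 6 transcription factors and neither receptor. The windows of Isg15, Bst2, Oas1a, Oas3, Ifit1, Ifit3, Rsad2 and Stat2 are shown because the core lies upstream of the start in them. Each line is 160 bases on the gene's strand, up to the base before the start except in Stat2, where it covers bases -240 to -81. Capitals mark the ISRE core on either strand.
Isg15, chr4:156200819-156200978, minus strand: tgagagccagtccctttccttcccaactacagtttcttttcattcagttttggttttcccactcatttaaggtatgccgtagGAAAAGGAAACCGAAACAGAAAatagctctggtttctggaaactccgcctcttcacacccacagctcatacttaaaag
Bst2, chr8:71537473-71537632, minus strand: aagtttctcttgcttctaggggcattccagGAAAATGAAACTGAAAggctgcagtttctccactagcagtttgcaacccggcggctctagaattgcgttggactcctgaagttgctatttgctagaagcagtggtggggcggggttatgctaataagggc
Oas1a, chr5:120907526-120907685, minus strand: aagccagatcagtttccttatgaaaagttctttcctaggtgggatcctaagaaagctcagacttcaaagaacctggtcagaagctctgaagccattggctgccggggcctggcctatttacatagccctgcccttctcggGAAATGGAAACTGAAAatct
Oas3, chr5:120777660-120777819, minus strand: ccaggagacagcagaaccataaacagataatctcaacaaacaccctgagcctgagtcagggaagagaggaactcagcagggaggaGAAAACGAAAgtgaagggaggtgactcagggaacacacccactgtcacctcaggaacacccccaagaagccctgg
Ifit1, chr19:34640729-34640888, plus strand: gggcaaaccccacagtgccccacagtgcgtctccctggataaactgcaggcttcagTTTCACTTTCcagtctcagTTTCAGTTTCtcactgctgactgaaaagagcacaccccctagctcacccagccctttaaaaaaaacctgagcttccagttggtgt
Ifit3, chr19:34583369-34583528, plus strand: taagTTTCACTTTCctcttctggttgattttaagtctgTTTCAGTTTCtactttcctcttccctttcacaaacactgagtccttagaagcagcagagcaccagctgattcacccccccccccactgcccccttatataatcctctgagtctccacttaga
Rsad2, chr12:26456453-26456612, minus strand: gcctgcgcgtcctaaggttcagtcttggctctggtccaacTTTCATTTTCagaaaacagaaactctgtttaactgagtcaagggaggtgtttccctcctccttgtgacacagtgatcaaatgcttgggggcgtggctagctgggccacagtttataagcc
Stat2, chr10:128270258-128270417, plus strand: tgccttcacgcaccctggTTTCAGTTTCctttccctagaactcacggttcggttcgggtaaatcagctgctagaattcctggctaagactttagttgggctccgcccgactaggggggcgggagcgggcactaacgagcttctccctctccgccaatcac
The core appears in several forms in these genes. In Isg15, 3 overlapping copies form 1 block from base -78 to -57, and in Bst2 and Oas1a 2 overlapping copies do. Ifit1 and Ifit3 hold 2 separate copies on the opposite strand, and Rsad2, Oas3 and Stat2 hold 1 copy. Oas1g, next to Oas1a on chromosome 5, has 2 overlapping copies from base -18 to -3. In the sensors Ifih1 and Ddx58 the core lies just after the start, and 30 bases around it are shown.
Ifih1, chr2:62646206-62646235, minus strand: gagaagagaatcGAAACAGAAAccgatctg
Ddx58, chr4:40239804-40239833, minus strand: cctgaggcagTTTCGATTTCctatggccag
In Eif2ak2 (base 19) and Ifitm3 (bases 3 and 20) the core also begins after the start. The GAS core TTCNNNGAA, the same on both strands, stood in a window of 11 of the 31 genes, against 9.55% of all symbols. Among the 11 were Ifnar1, Ifnar2, Irf1 and Irf8, which lack the ISRE core in their windows. Irf1, Irf8, Ifit2 and Isg20 held the GAS core in only 1 of their windows. In Bst2 and Ifitm3 it overlaps the ISRE core. A match is a description of these letters and not evidence of binding, and no match says only that the letters are not in this window. Windows were not found here for Dhx58, Zbp1, Oas2, Mx1, Mx2, Rtp4, Usp18, Parp9 and Parp14.

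Several of the genes sit close to each other in the genome. By the probe positions in the files (mm9), 8 lie on chromosome 16, among them the pairs Ifnar1 and Ifnar2, Mx1 and Mx2, and the trio Parp9, Dtx3l and Parp14. Another 6 lie on chromosome 5, all of them genes for oligoadenylate synthetases or their relatives, and the 3 Ifit genes lie together on chromosome 19. Cmpk2 and Rsad2 lie close together on chromosome 12, and Ifitm1 and Ifitm3 on chromosome 7.

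All 39 tested genes were higher in PPE aorta than in sham (limma adjusted p under 0.01), where 13.8% of all names tested were called higher and 9.96% lower. Of the 39, 0 were called lower, with or without adjustment. Their median log2 fold change was 2.36, from 0.75 (Ifi35) to 4.21 (Oas1a), and the median over all names tested was 0.02. A change of at least 2-fold was seen in 37, at least 4-fold in 27 and at least 8-fold in 11. All 5 PPE arrays lay above all 5 sham arrays in 38 of the 39, and in 14.9% of all names tested. Ifit3 was the exception. Among the genes with a promoter window, the 12 tested with the ISRE core had a median of 2.15 (1.34 to 4.21) and the 18 without it a median of 2.04 (0.75 to 3.32). The probe was well above background on all 10 arrays for 37 of the 39, while Mx1 and Herc6 were above it on 4 of 5 sham arrays and on all PPE arrays. With each array centred on its median in place of loess, 16 of the 39 were past the threshold, and 1.81% of all names were called higher (408 higher and 8 lower, against 3116 and 2243 with loess). Under that centring the median of all names moved to 0.41, the 39 genes lay between 1.34 and 4.71, all above 0, and their median exceeded that of all names by 2.47, against 2.34 with loess.

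**Figure D1:**
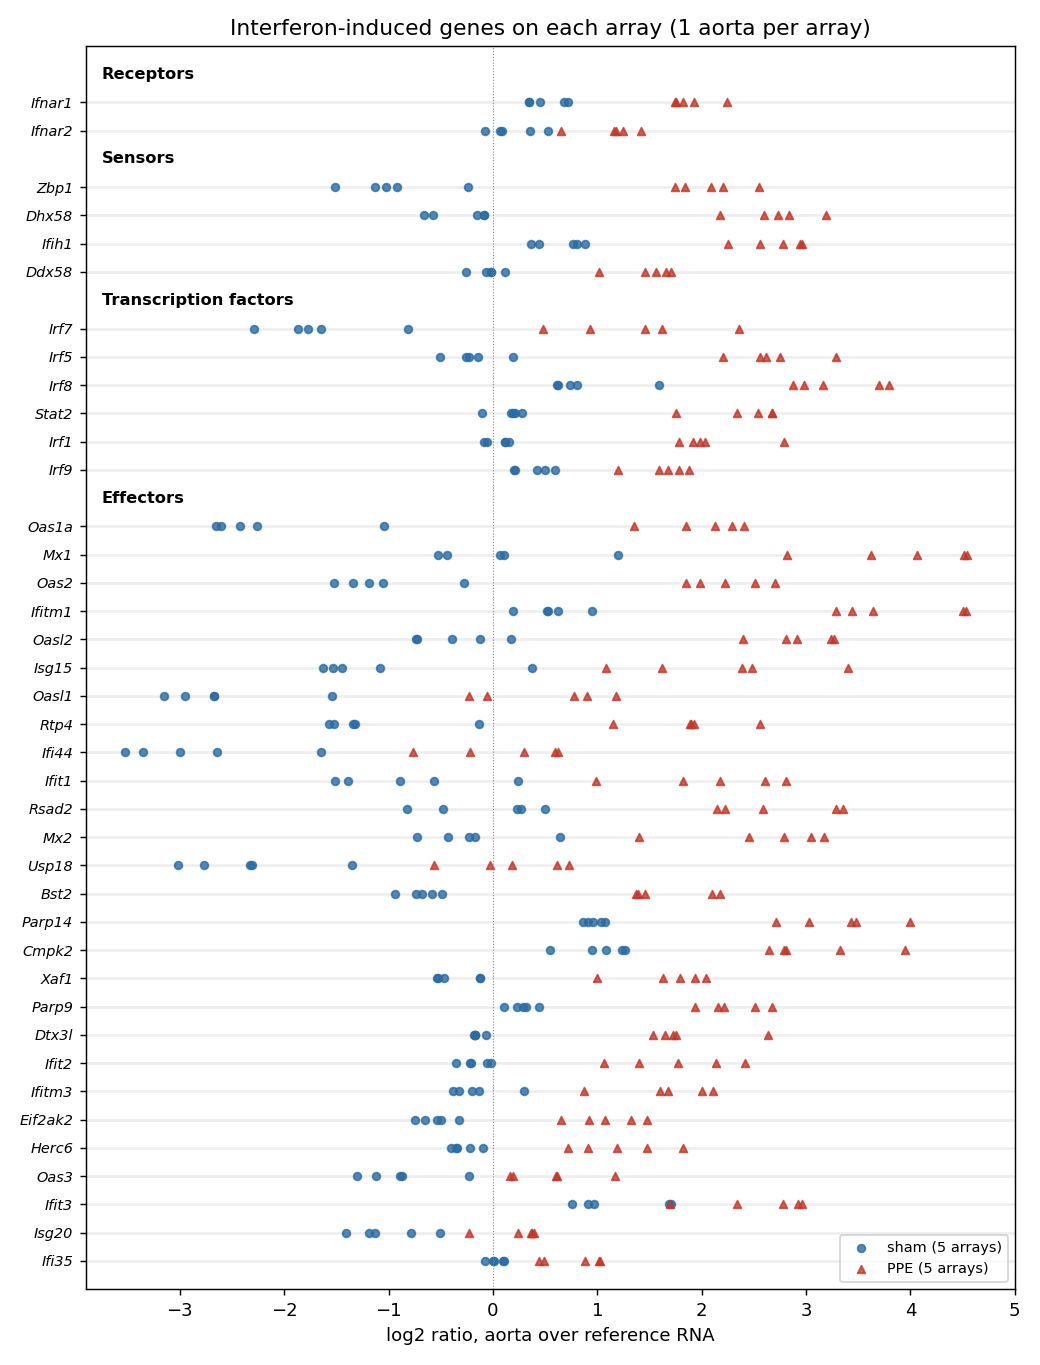
Log2 ratio of aorta over reference RNA (horizontal axis) of the 39 tested genes on each of the 5 sham arrays (circles) and 5 PPE arrays (triangles), by role and, within a role, by log2 fold change. The triangles lie to the right of all circles in every gene but Ifit3, where PPE 4 (1.70) falls just under sham 4 (1.71), and positions are not comparable between genes.

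Both receptor chains were higher in PPE, with changes in the lower part of the range of the 39. Ifnar1, the chain that pairs with TYK2, had log2 ratios of 0.68, 0.45, 0.34, 0.72 and 0.35 on sham 1 to 5 and of 2.24, 1.93, 1.74, 1.82 and 1.75 on PPE 1 to 5. The groups were apart by more than the spread within either, and the log2 fold change was 1.39 (SE 0.13, adjusted p 1.17e-05). Ifnar2, the chain that binds interferon most tightly and pairs with JAK1, read 0.35, 0.066, 0.084, 0.53 and -0.079 in sham and 1.42, 1.25, 1.16, 1.18 and 0.65 in PPE. PPE 5 came close to the highest sham array, and the log2 fold change was 0.94 (SE 0.16, adjusted p 0.000853), under 2-fold. Ifnar1 had 3 tested probes that differed. The brightest gave 1.39, and the others gave 0.83, which was called, and 0.29 (limma adjusted p 0.155 over all tested probes), which was not. Under median centring neither receptor gene was past the threshold (adjusted p 0.0886 and 0.201).

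The 4 sensors were all higher, with a median log2 fold change of 2.54. Zbp1 binds Z-form nucleic acid and can start inflammatory cell death. Its probe lies at chr2:173039307-173039366 (mm9), and its ratios were -1.51, -1.13, -1.02, -0.92 and -0.24 in sham and 2.55, 2.20, 2.09, 1.74 and 1.84 in PPE. Sham 5 was the highest sham array by a clear margin and still far below every PPE array, and the log2 fold change was 3.05 (SE 0.23, adjusted p 2.43e-06). Dhx58 encodes LGP2, a helicase without signalling domains that tunes the other RNA helicases. It read -0.57, -0.66, -0.15, -0.085 and -0.083 in sham against 3.19, 2.60, 2.84, 2.18 and 2.73 in PPE, a log2 fold change of 3.02 (SE 0.19, adjusted p 9.81e-07). Every sham array was below the reference and every PPE array above it.

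Both RNA helicases that signal on their own were higher too. Ifih1 encodes MDA5, which detects long double-stranded RNA. Ratios were 0.77, 0.44, 0.36, 0.88 and 0.81 in sham and 2.96, 2.56, 2.78, 2.25 and 2.94 in PPE, with no overlap, and the log2 fold change was 2.05 (SE 0.16, adjusted p 3.64e-06). A dimmer second probe of Ifih1 gave 1.02 and was also called. Ddx58 encodes RIG-I, which detects RNA with a triphosphate end. Sham arrays lay around 0 (-0.015, -0.020, -0.26, -0.070 and 0.12) and PPE arrays at 1.66, 1.46, 1.56, 1.02 and 1.71, which gave 1.53 (SE 0.14, adjusted p 9.89e-06). PPE 4 was the lowest PPE array in all 4 sensors. Under median centring Zbp1 and Dhx58 stayed past the threshold, and Ifih1 (adjusted p 0.0181) and Ddx58 (0.0413) did not.

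The 6 transcription factors were all higher, with a median log2 fold change of 2.34. Of the ISGF3 subunits among them, Stat2 read -0.11, 0.17, 0.19, 0.21 and 0.27 in sham and 2.67, 2.34, 2.54, 1.75 and 2.67 in PPE. The sham arrays were tight, PPE 4 was the lowest of its group, and the log2 fold change was 2.25 (SE 0.17, adjusted p 3.2e-06). Irf9, the DNA-binding subunit, read 0.21, 0.42, 0.20, 0.50 and 0.60 in sham and 1.78, 1.68, 1.59, 1.20 and 1.88 in PPE. It had the smallest change of the 6, 1.24 (SE 0.14, adjusted p 5.19e-05), with PPE 4 the lowest of its group and still above all sham arrays. Irf7 drives the later wave of interferon alpha genes. Its sham values of -2.29, -1.77, -1.65, -1.87 and -0.81 and PPE values of 1.62, 0.93, 1.46, 0.47 and 2.36 were the most scattered of the 6. They lay on either side of the reference, and the log2 fold change was 3.05 (SE 0.35, adjusted p 4.58e-05).

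Irf1, an activator that interferon gamma also induces, read -0.082, 0.16, -0.056, 0.12 and 0.11 in sham and 2.79, 1.92, 2.03, 1.78 and 1.98 in PPE. PPE 1 stood above the other 4, which were close together, and the log2 fold change was 2.05 (SE 0.17, adjusted p 5.73e-06). Irf5, which acts downstream of Toll-like receptors in macrophages and dendritic cells, read -0.26, -0.51, 0.19, -0.15 and -0.23 in sham and 3.29, 2.62, 2.56, 2.75 and 2.20 in PPE. The lowest PPE value was far above the highest sham value, and the log2 fold change was 2.87 (SE 0.19, adjusted p 1.4e-06). Irf8, a factor of monocyte and dendritic cell development that B cells carry too, read 0.63, 0.62, 1.59, 0.80 and 0.74 in sham and 3.70, 3.80, 2.88, 2.98 and 3.16 in PPE. Sham 3 stood above the other sham arrays but under all PPE arrays, and the log2 fold change was 2.43 (SE 0.23, adjusted p 1.37e-05). Sham 3 also had the highest means of the B cell markers (0.83, the others -0.63 to -0.35) and of the T and NK cell markers (0.13, the others -0.75 to -0.51) among sham arrays, and their part in the Irf8 value was not tested. Under median centring Irf7 and Irf5 stayed past the threshold and the other 4 did not, with adjusted p from 0.0101 (Stat2) to 0.0697 (Irf9).

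The effectors held both the largest and the smallest changes. All 27 tested were called higher, with a median log2 fold change of 2.39. Oas1a makes the second messenger that activates RNase L, and its ratios were -2.61, -2.65, -2.42, -2.26 and -1.04 in sham and 2.29, 1.85, 2.41, 1.35 and 2.13 in PPE. The log2 fold change was 4.21 (SE 0.31, adjusted p 2.18e-06), an 18.4-fold rise and the largest of the 39. Its probe lies at chr5:121346735-121346794 (mm9) and the files list transcripts of both Oas1a and Oas1g for it, so the reading may hold both genes. A second probe listed for Oas1a alone gave 3.39. Mx1, a GTPase against influenza viruses whose allele in C57BL/6 mice makes no working protein, read -0.44, -0.53, 0.064, 0.11 and 1.20 in sham and 4.51, 4.06, 3.62, 2.82 and 4.54 in PPE. The fold change was 3.83 on the log2 scale (SE 0.38, adjusted p 1.82e-05), with sham 5 the highest sham array.

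Oas2, the second of the oligoadenylate synthetase genes by size of change, read -1.52, -1.34, -1.19, -1.05 and -0.28 in sham and 2.22, 1.98, 2.51, 1.85 and 2.70 in PPE. The change was 3.33 (SE 0.24, adjusted p 1.92e-06). Ifitm1, a membrane protein that hinders virus entry, read 0.62, 0.52, 0.95, 0.52 and 0.19 in sham and 4.53, 4.50, 3.29, 3.44 and 3.64 in PPE. Here sham 5 was the lowest sham array rather than the highest, and PPE 1 and PPE 2, both on slide 1, stood about 1 log2 unit above the other PPE arrays. The log2 fold change of Ifitm1 was 3.32 (SE 0.26, adjusted p 3.25e-06), 3.90 on slide 1 and 2.63 on slide 2. Oasl2, a relative of the synthetases, read -0.73, -0.74, -0.39, -0.13 and 0.17 in sham and 3.24, 2.81, 2.91, 2.40 and 3.27 in PPE, a change of 3.29 (SE 0.22, adjusted p 1.18e-06). Isg15, a small protein that is joined to others like ubiquitin (probe at chr4:155573649-155573708, mm9), read -1.63, -1.53, -1.45, -1.08 and 0.37 in sham and 2.39, 1.62, 2.48, 1.08 and 3.40 in PPE. Sham 5 and PPE 4 were less than 1 log2 unit apart, the SE of 0.46 was the largest of the 39, and the change was 3.26 (limma adjusted p 0.000222).

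Of the other effectors that act on RNA, translation or nucleotides, Oasl1 rose by 3.11, Ifit1 by 2.90, Rsad2 (viperin) by 2.78, Mx2 by 2.76, Cmpk2 by 2.09, Ifit2 by 1.93, the kinase gene Eif2ak2 (PKR) by 1.64, Oas3 by 1.43, Ifit3 by 1.34 and the exonuclease gene Isg20 by 1.23. Ifit3 was the weakest call of the 39 and the only gene whose groups overlapped. Its ratios were 0.91, 0.96, 0.76, 1.71 and 1.69 in sham and 2.78, 2.96, 2.34, 1.70 and 2.92 in PPE (SE 0.27, adjusted p 0.00271). In the deposited LogRatio its limma adjusted p was 0.0102, not past the threshold. Oas1g was not tested, since its brighter probe was above background on 0 sham and 3 PPE arrays. That probe read -0.26, -0.036, -0.0034, -0.24 and -0.013 in sham and 0.63, 0.33, 0.50, 0.40 and 0.18 in PPE, with no overlap, and it too is listed for transcripts of both Oas1a and Oas1g.

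At membranes, besides Ifitm1, the trafficking gene Rtp4 rose by 3.06, Bst2 (tetherin, which holds budding viruses at the cell surface) by 2.39 and Ifitm3 by 1.80. Around ISG15 and ADP-ribosylation, Usp18, which removes ISG15 and also restrains the receptor, rose by 2.54, Parp14 by 2.36, Parp9 by 2.02, its partner Dtx3l by 2.01 and the ligase gene Herc6 by 1.51. Sham arrays were tightest for Dtx3l (SD 0.0495, n = 5) and Parp9 and Parp14 had SDs of 0.12 and 0.086. Of the rest, Ifi44 rose by 2.94, Xaf1 by 2.04 and Ifi35 by 0.75. Ifi35 had the smallest change of all, at 1.68-fold, and with slide as a fixed block its adjusted p was 0.0179. Under median centring 12 of the 27 effectors stayed past the threshold.

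Only 11 of the 39 tested genes had more than 1 tested probe, so probes could be compared in those alone. In 3 of them 1 probe was not called. The 40 genes had 56 probes, of which 52 were tested, and 49 of the 52 were called higher, with all 52 above 0. The 52 include the brightest probe of each of the 39 genes, all of them called. The 3 not called were 1 probe each of Ifnar1, Dtx3l (0.74, limma adjusted p 0.0101 over all tested probes) and Xaf1 (0.37, adjusted p 0.144). With the mean of the tested probes in place of the brightest, all 39 were called, and the lowest values of Ifnar1, Xaf1 and Dtx3l over all alternatives were 0.83, 1.21 and 1.20.

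**Figure D2:**
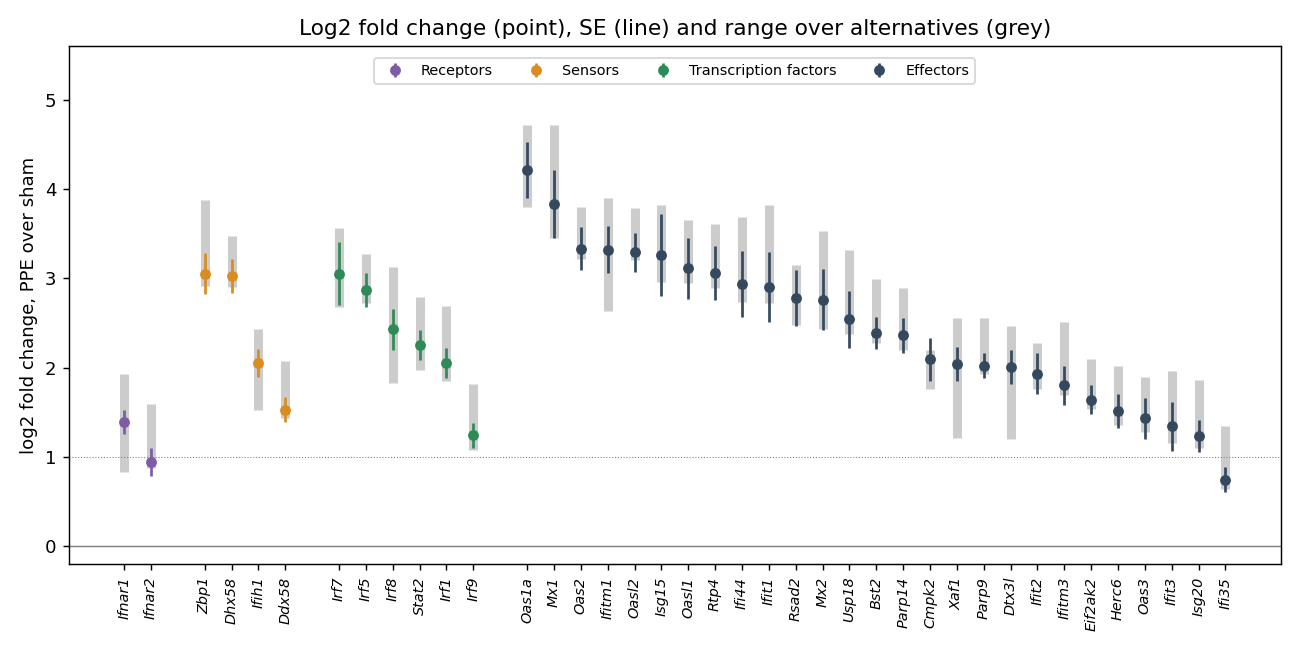
Log2 fold change of PPE over sham (vertical axis) for each of the 39 tested genes by role. Points are the fitted values, thin lines their SE, grey bars the lowest to highest value over the alternative processings, and the dotted line marks 2-fold; every bar stays above 0, and Ifi35 (0.75) and Ifnar2 (0.94) are the points under 2-fold.

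Within each group the same arrays were often the lowest or highest among these genes. The order over all names tested was not examined, so it is not known to be particular to them. PPE 4 was the lowest PPE array in 27 of the 39 and the highest in 0, and PPE 1 was the highest in 22. Among sham arrays, sham 5 was the highest in 21. The mean log2 ratio over the 39 was -0.60 to 0.0065 on sham arrays, where the top value was that of sham 5 and the next was -0.36, and 1.45 (PPE 4) to 2.37 (PPE 1) on PPE arrays. Sham 5 also had the smallest share of red spots well above background, 37.6% against 49.5% to 62.1% on the other sham arrays, and PPE 1 the largest, 65.8%. Their part in the order of arrays was not tested. Without sham 5 the median log2 fold change was 2.38 and without PPE 4 it was 2.44, and all 39 remained called in each case. The SD within PPE was larger than within sham in 30 of the 39, with medians of 0.42 and 0.28.

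The sign was the same on each slide that held both groups. On slide 1 (sham 1, PPE 1 and PPE 2), which alone was scanned on another day, all 39 differences were above 0, from 0.66 to 4.72 with a median of 2.50. On slide 2 (sham 2, sham 3, PPE 3 and PPE 4) they ran from 0.66 to 4.42 with a median of 2.12. The other 3 arrays had a slide each. The difference was larger on slide 1 by more than 1 log2 unit in Irf8 (3.12 and 1.83), Mx1 (4.72 and 3.45), Ifitm1 (3.90 and 2.63) and Mx2 (3.53 and 2.43), values of 3 and 4 arrays that have no test.

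The genes that make type I interferon themselves were dim, and none of those tested was called. Of 16 genes for interferon alpha, beta, epsilon, kappa and relatives, 13 had a probe and 7 were tested. By limma 0 of the 7 were called, and 0 had an unadjusted p under 0.05. Their log2 fold changes were 0.23 (Ifna5), 0.17 (Ifna2), 0.16 (Ifna14), 0.11 (Ifna1), 0.084 (Ifna12), 0.054 (Ifnab) and 0.0070 (Ifna13). The alpha genes resemble each other closely, so a probe may read more than 1 of them. Ifnb1, the single beta gene, was above background on 0 sham and 2 PPE arrays, with ratios of -0.091, -0.076, -0.075, 0.020 and -0.081 in sham and 0.45, 0.30, 0.16, -0.21 and 0.12 in PPE, and was not tested. Ifna4, Ifna7, Ifna11, Ifnk and Ifne were not tested either, and at this signal a small change could not be detected.

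The interferon gamma gene was near background in sham and above it in PPE. Ifng read 0.30, 0.13, 0.025, 0.16 and 0.078 in sham and 4.55, 3.16, 2.50, 2.57 and 2.02 in PPE, a log2 fold change of 2.82 (SE 0.38, adjusted p 0.000147). The probe was above background on 1 sham and on all 5 PPE arrays, so it entered the test only through the PPE group, and the size of the change rests on a sham level that was mostly not measured above background. Its receptor genes Ifngr1 and Ifngr2 rose by 1.36 and 0.75. Of the interferon lambda system, Il10rb, a chain shared with the interleukin-10 receptor, rose by 1.40, while Ifnl3 (named Il28b in the files, 0.21) and Ifnlr1 (Il28ra, 0.35) were not called.

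From the receptor to transcription, 2 of 4 further genes were higher, where 13.8% of all names tested were. Jak1 rose by 1.28 and Irf2 by 1.03, and Tyk2 (0.48, limma adjusted p 0.0128) and Irf3 (-0.051) were not past the threshold. Of 13 further genes that sense nucleic acids or relay the signal, 8 were higher. The largest were the adaptor Tmem173 (STING, 2.95), Unc93b1 (2.08), which carries Toll-like receptors to endosomes, Tlr7 (2.01) and the DNA sensor Mb21d1 (cGAS, E330016A19Rik in the files, 1.76). Not past the threshold were Tlr3 (0.79), Tbk1 (0.54), Ticam1 (0.37), Tlr9 (-0.13) and Mavs (-0.36), the adaptor on mitochondria through which RIG-I and MDA5 signal. A dimmer tested probe of Mb21d1 read 0.48 and was not called (limma adjusted p 0.0365 over all tested probes). All 4 genes listed as brakes were higher by their brightest probe. The phosphatase gene Ptpn6 rose by 3.42, Socs1 by 2.13, Socs3 by 2.09 and Ptpn2 by 0.63. Dimmer tested probes of Ptpn2 read 0.50 and 0.29 and were not called (limma adjusted p 0.0167 and 0.0305 over all tested probes).

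A further list of interferon-induced genes outside the 40 held genes in both directions. Of 32 genes, 29 were tested, 22 were higher and 1 was lower, against 13.8% and 9.96% of all names tested. Their median log2 fold change was 1.23. The largest increases were those of Trim30a (Trim30 in the files, 3.21), Ifi204 (3.12), Nlrc5 (2.68), an activator of MHC class I genes, and Phf11 (2.68). Ifi27 (Ifi27l1 in the files) fell by 1.52, with ratios of 2.90, 2.37, 2.40, 2.78 and 2.03 in sham and 0.93, 1.56, 0.89, 0.81 and 0.69 in PPE. Its groups did not overlap and lay in the opposite order to the 39 genes (SE 0.20, adjusted p 0.000126). Its relative Ifi27l2a read -0.71 (adjusted p 0.0728). Also not past the threshold were Apol9b (0.66), Apol9a (0.53), Oas1b (0.14), Ms4a4c (0.13) and Sp110 (0.066), and Ifi202b and Ddx60 were not tested. These values are those of the brightest probe, and for Oas1b, Ms4a4c and Sp110 other tested probes were called higher, at 1.49 in Oas1b, 3.74 and 4.69 in Ms4a4c and 1.35 and 2.31 in Sp110. Probes of Nlrc5 differed as well, and its dimmer one read 0.37 and was not called. With the mean of probes 25 of the 29 were called higher, against 13.7% of all names, and under median centring 5, against 1.81%.

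**Figure D3:**
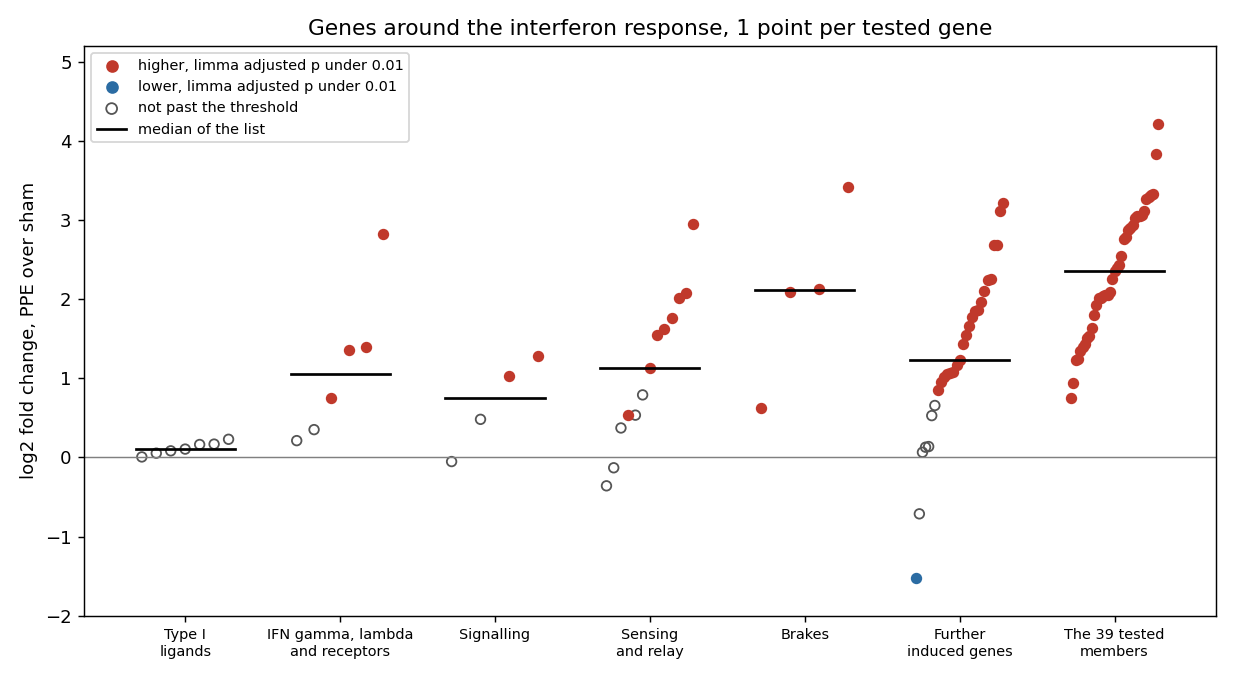
Log2 fold change of PPE over sham (vertical axis), 1 point per tested gene, for 6 lists around the interferon response and, at the right, the 39 tested genes. Filled points were past a limma adjusted p of 0.01 and bars are list medians; the 7 type I ligand genes lie between 0.0070 and 0.23, and the 1 gene that fell is Ifi27.

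Markers of several cell types moved with the groups, where 13.8% of all names tested were called higher and 9.96% lower. Of 11 macrophage genes, 6 were higher and 0 lower. Not called were C1qb (1.25), C1qc (0.52), C1qa (0.43), Mertk (-0.30) and Cd163 (-0.46). At an unadjusted limma p under 0.05, 7 were higher and 1 lower. The mean log2 ratio of the 11 was 0.97 to 1.55 on sham arrays and 2.51 to 3.54 on PPE arrays. On PPE 1 that mean leaves out Lyz2, which had no value there. Of 7 neutrophil genes 5 were higher (0.41 to 0.62 and 2.60 to 3.88), and Elane (0.59) and Csf3r (-0.075) were not called. Among the 5 were Ngp and Mpo, which were above background on 0 and 1 sham arrays and entered the test only through PPE. Of 8 T and NK cell genes 4 were higher (-0.75 to 0.13 and 0.95 to 2.13). At an unadjusted limma p under 0.05 all 8 were higher and 0 lower. Among these, Ncr1 was above background on 0 sham and 5 PPE arrays. Of 4 genes of conventional dendritic cells 2 were higher (0.51 to 0.73 and 1.36 to 2.85), and Cd209a (1.02) and Zbtb46 (-0.24) were not called. Plasmacytoid dendritic cells are known as strong makers of type I interferon. Of 5 of their genes Ccr9 (1.74) and Klk1 (1.64) were higher. Each was above background on only 2 sham arrays and on all 5 PPE arrays, so their sham levels were mostly not measured. Siglech, the most specific, was not called (-0.30) by the brightest of its 3 tested probes, and its other probes are not given here. Cox6a2 (-1.01) and Pacsin1 (0.24) were not called. The means of the 5 genes overlapped (-0.37 to 0.34 and 0.23 to 0.84). Those means lean on Cox6a2, whose sham ratios alone ran from -2.52 to 1.83, and means without it were not computed. Of 4 B cell and 6 endothelial genes 0 were called by limma, with 0 and 1 at an unadjusted p under 0.05. Of 7 smooth muscle genes 6 were lower, and their mean was 3.53 to 4.70 on sham and 1.77 to 3.02 on PPE arrays, so the defining markers of the vessel wall were above the reference on all 10 arrays. Fibroblast genes were higher in 2 of 5. Adipocyte genes were lower in 1 of 5, which was Ucp1 (-2.94), and Adipoq, Plin1, Cidec and Lep were not called. The part of these cell types in the rise of the 39 genes was not tested.

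The order of the PPE arrays was not the same in all lists. PPE 4, where the 39 genes were on average lowest, had the highest mean of the neutrophil genes (3.88, the others 2.60 to 2.86) and was the third highest for the macrophage genes (2.85). PPE 1, where the 39 genes were highest, also had the highest macrophage mean (3.54, without Lyz2).

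**Figure D4:**
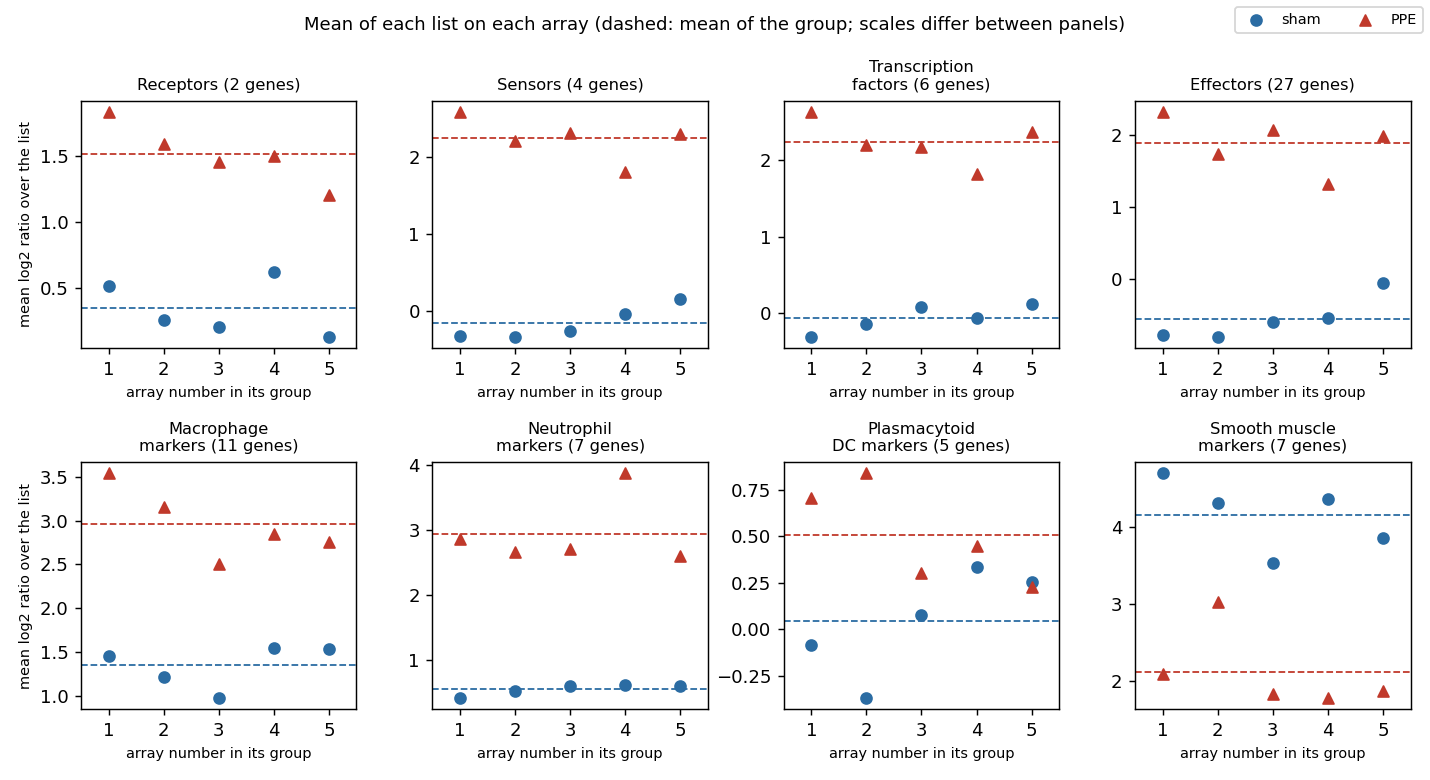
Mean log2 ratio over the genes of a list (vertical axis) on each array (horizontal axis, its number in the group) for the 4 roles and 4 cell type lists, with dashed lines at the group means. In the roles and in the macrophage and neutrophil lists all PPE triangles lie above all sham circles, and in the smooth muscle list below them. In the list of plasmacytoid dendritic cells, which holds the widely scattered Cox6a2 (sham -2.52 to 1.83), the groups overlap.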

How the data were processed

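Male mice of 10 weeks gave 5 sham and 5 PPE arrays, grouped by the sample labels. Per the file headers, the authors read the 2-colour arrays with Agilent Feature Extraction 10.7.3.1, and each deposited spot mean and background median is an intensity, not logged. LogRatio, as deposited, gives log10 of the ratio red over green and was rescaled to log2. The series matrix that the authors deposited gives a log2 ratio per spot. For 100% of spots it matched, to within 1e-04, the logged quotient of both processed signals, with column medians between -0.16 and 0.12, so scale and direction were settled and no centring was seen. Per the study's methods, RNA was filtered on quality, arrays with poor hybridization or outlying in clustering were removed (which is not stated), and the arrays were of 1 print run. Dyes were not swapped, so a dye bias that varies with signal does not cancel.

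Values were computed in R 4.3.3 with limma 3.58.1. Normexp (offset 50, which draws changes of dim probes towards 0) was applied to spot mean and background median, then loess within each array, with control spots and 176 to 331 outlier spots per array left out. No spot was saturated. Spots of 1 probe were averaged. Probes entered the test when red was flagged well above background on 5 or more of 10 arrays (a share of at least 0.5 where a probe had several spots), and the brightest tested probe stood for a gene name. Groups were compared with limma (lmFit, eBayes), unpaired and two-sided, over all 22520 names, with Benjamini-Hochberg adjustment and a threshold of 0.01, since the study used a false discovery rate of 1%. SAM, the study's own test, was not run. The number of arrays limits the precision. No 2 arrays of a group held the same values (highest correlation 0.969). The fit was tested on simulated data.

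The genes and the other lists were chosen with earlier results of these data known. All 40 genes are named, with values on every array for receptors, sensors, transcription factors, the 6 effectors with the largest increase and each gene not past the threshold. Ifit3 was added after its values were seen, since it was the 1 gene whose groups overlapped. Of the other lists, every tested ligand, receptor, signalling and brake gene in the lists as given is named, and of sensing genes and further induced genes the 4 with the largest increase and those that fell or were not called. The signalling list is given without 1 gene, which is not reported here. Older names in the files were matched by alias. Probes for Ifna6, Ifna9, Ifnz, Ifnl2, Ifi205 and Ly6g were not found by name. Promoter windows are those of RefSeq, assembly GRCm38.p6, and probe positions are those of the files (mm9). Alternatives were the LogRatio, the series matrix, median centring, Aquantile, an offset of 16, a filter on all 10 arrays, no filter, the mean of probes, slide, scan day or replicate number as a block, and leaving out each array.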

Additional observations from a re-analysis of the deposited data

Results flagged for a closer look

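Each group of 5 arrays was screened for a single array far from the rest, by dividing its distance to the nearest other array by the full spread of the 5. Of 78 such groups, 9 had a ratio over 0.71, Dixon's critical value for 5 arrays, and about 5% would pass it by chance. Sham 5 stood above the other sham arrays in 3 effectors. Its log2 ratio was -1.04 for Oas1a (next -2.26, ratio 0.758), -0.14 for Rtp4 (next -1.32, ratio 0.825) and 0.37 for Isg15 (next -1.08, ratio 0.724). Sham 3 stood above its group in Irf8 at 1.59 (next 0.80, ratio 0.809) and in Dtx3l at -0.065 (next -0.17, ratio 0.895), where the other sham arrays were almost equal. Sham 1 was the low array of Stat2 at -0.11 (next 0.17, ratio 0.741). PPE 1 stood above the other PPE arrays in Irf1 at 2.79 (next 2.03, ratio 0.759) and in Dtx3l at 2.64 (next 1.75, ratio 0.803). PPE 4 was the low array of Isg20 at -0.23 (next 0.24, ratio 0.755). In each of these genes all PPE arrays still lay above all sham arrays.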

How the results depend on the processing

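Over the alternatives, 973 values of single genes were computed. Of these, 929 kept their direction and their side of the threshold (or, within a slide, lay within the spread of replicates), 26 lost the call, 18 within-slide values lay further off, and 0 changed sign. Median centring accounted for most. Under it 16 of the 39 genes were called higher, with 12 effectors, 2 sensors and 2 transcription factors, 5 of the further interferon-induced genes were called, and the median log2 fold change was 2.88. The cause was not tested. The other lost calls were Ifit3 in the LogRatio and the series matrix and Ifi35 with slide as a fixed block. Aquantile leaves log ratios as they are by construction and so changed nothing. The mean of probes likewise leaves the ratios of genes with 1 tested probe as they are. Such values count among the 929 without being a check. With 1 array left out, all 39 were called each time, and the median was 2.20 (without PPE 1) to 2.46 (without PPE 5). Leaving out sham 5 and PPE 5 together, chosen after seeing the data, gave 39 and a median of 2.43. Array numbers are shared by the groups but do not pair the mice: deviations of same-numbered arrays correlated at 0.29, -0.30, 0.16, -0.14 and 0.52, and 1 of the 5 numbers matched best with itself. With the number as a replicate block, 39 genes were again called (median 2.36). Genes near background, such as the interferon ligands, limit what could be seen: changes there are drawn towards 0.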
